A study of Mus musculus with 6 samples.

Results

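Bone marrow-derived macrophages with and without the transcription factor gene Foxo1 were compared after 24 hours with lipopolysaccharide (LPS) and interferon-gamma, the treatment that gives the inflammatory state called M1. The comparison rests on 2 of the 6 arrays of the series, 1 from control cells (WT M1) and 1 from Foxo1-deficient cells (KO M1). A gene was taken as measured where its brightest probe was well above background on both arrays, which held for 16655 of 27361 gene names. Control cells came from C57BL/6 mice of the genotype FoxO1 Fl/Fl, and deficient cells from C57BL/6 mice of the genotype LysMcre FoxO1 Fl/Fl. Both genotypes thus carry the floxed gene, and only the deficient cells carry Cre, expressed from the lysozyme M locus of myeloid cells, so loss of Foxo1 and presence of Cre cannot be told apart. All cells were grown for 7 days with 10% L929-conditioned medium, and the M1 cells were then stimulated with LPS (100 ng/ml) and interferon-gamma (20 ng/ml). The other arrays hold cells of both genotypes without stimulus (M0, 0 hours of treatment) or with 10 ng/ml IL-4 and 10 ng/ml IL-13 for 24 hours (M2). Whether RNA samples came from separate animals, and which part of Foxo1 is floxed, are not given in the sources used here.

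LPS is sensed by TLR4, whose adaptors activate NF-kB and MAP kinases and thereby cytokine, chemokine and feedback genes. Interferon-gamma signals through JAK kinases to transcription factors that induce IRF1, guanylate-binding GTPases, antigen-processing genes and the MHC class II transactivator Ciita. FoxO1 is a forkhead factor that insulin and growth factor signalling through AKT keeps out of the nucleus, and its known targets include genes of cell cycle arrest, metabolism and, in macrophages, Tlr4.

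Each genotype had 1 array in the M1 state, so no difference below has a replicate or a p-value. Levels are log2 signals relative to the 75th percentile of the array, which over the averaged probes was 545 units on WT M1 and 542 units on KO M1. Differences are KO minus WT on this log2 scale, where 1 is a doubling, and "higher" or "lower" in a count means at least 2-fold. Well above background were 25875 probes on WT M1 and 27159 on KO M1, and repeat spots of a probe had a median SD of 0.0705 and 0.0578. The WT M1 array lay on the first slide with WT M0, and the KO M1 array on the second with WT M2 and all other KO arrays, so slide and genotype cannot be told apart in this pair. All 18 macrophage markers were above background on both arrays, among them Csf1r, Adgre1 (listed as Emr1) and Cd68. The M1 state was visible in both: Nos2, the inducible nitric oxide synthase, read 3.48 on WT M1 and 2.94 on KO M1 and was not above background on any other array. Transcripts typical of liver were above background for 9 of 34 list genes on WT M1, 27 on KO M1 and 34 on WT M0. Albumin (Alb) read -7.61 on WT M1, -2.26 on KO M1 and 3.58 on WT M0, and the antitrypsin gene Serpina1d -5.55, -0.65 and 3.64. Their part in the other differences was not tested, and without the 9 measured genes of the liver list the counts were 1515 higher and 178 lower, against 1522 and 178 with them.

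Foxo1 itself gives the check of the labels. Its brightest probe lies in the coding sequence at chr3:52150183-52150242 (mm9, + strand) and is shown because it checks the genotype labels.
Foxo1 probe: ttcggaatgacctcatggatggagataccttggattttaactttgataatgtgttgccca
The Foxo1 probe read 1.07 on WT M1 and -1.71 on KO M1, or 1144 against 165 units, a difference of -2.78. WT M0 and WT M2 both read 1.59, while KO M0 read -1.34 and KO M2 -1.07, so every KO array was below every WT array. A second probe differed by -2.91 in M1. The signal stayed above background on all KO arrays. Of the other family members, Foxo3 differed by 0.25 and Foxo4 by 0.20 in M1, and Foxo6 was not above background on any array. Lyz2, the gene that drives Cre, gave opposite values with its 2 probes, 0.73 and -0.93.

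Of the 16655 measured genes, 9931 had a difference above 0, the baseline for list members above or below 0. Across the 16655 genes, 1522 (9.14%) were higher and 178 (1.07%) lower in KO M1, together 10.2%, with a median difference of 0.09. The higher genes were thus 89.5% of those 2-fold apart (95% Wilson interval 88.0 to 90.9). This interval covers counting error only, takes the genes as independent and leaves out the choice of scaling. The share of higher genes depended on the scaling. On the authors' log2 scale 743 genes (4.46%) were higher and 351 (2.11%) lower, together 6.57%, so 67.9% of them were higher. After quantile normalization 4.47% of the genes were higher and 2.14% lower, together 6.61%, and the higher share was 67.7%. After centring each array on its median 4.17% were higher and 3.3% lower, together 7.48%, the higher share was 55.8%, and the median difference was -0.23. Both the 75th percentile and the authors' table called 743 genes higher and 174 lower, and none of the genes 2-fold apart on the first scale had the opposite sign in the table.

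**Figure D1:**
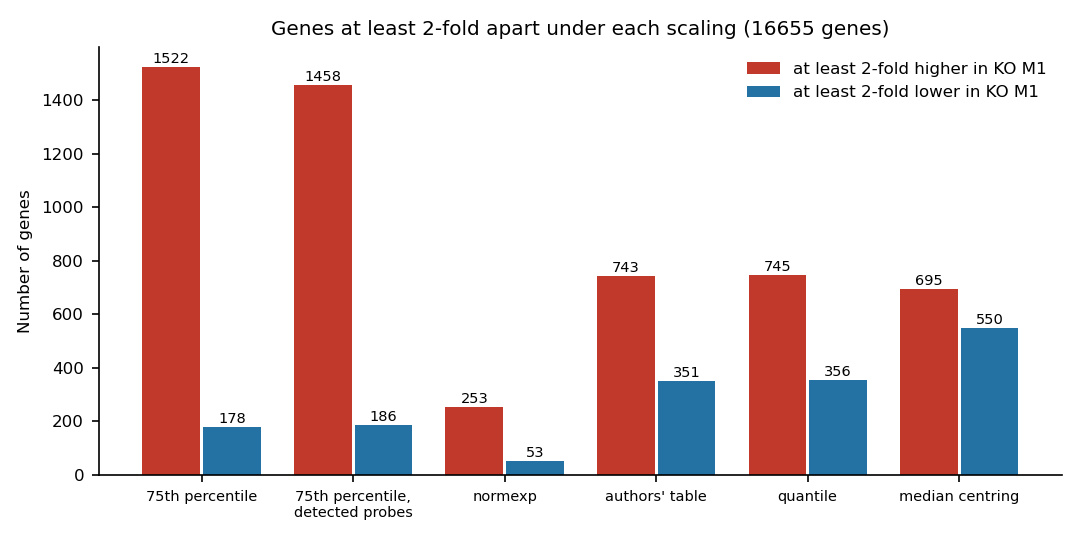
Number of genes (vertical axis) at least 2-fold higher (red) or lower (blue) on KO M1 than on WT M1 under 6 scalings of the same 16655 genes, 1 array a genotype. The count of lower genes runs from 53 with normexp background correction, which adds 50 units to every signal, to 550 with median centring. The higher genes outnumber the lower under each of the 6.

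The imbalance lay mainly among dim genes. The measured genes were split by level into 5 bins of 3331. In the dimmest bin (levels from -5.94 to -3.67) the median difference was 0.47, with 759 genes higher and 52 lower. In the brightest bin (levels from 2.83 to 9.28) it was 0.09, with 42 higher and 11 lower. The authors' table had medians of 0.06 and -0.01 in these bins and counts of 277 higher against 193 lower and 33 against 12. For 5878 genes a further probe was above background on both arrays, and its difference lay a median of 0.193 from that of the brightest probe. Among 159 higher genes with such a probe, it had the same sign in 143 and was itself 2-fold apart in 64, and among 46 lower genes in 37 and 19.

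**Figure D2:**
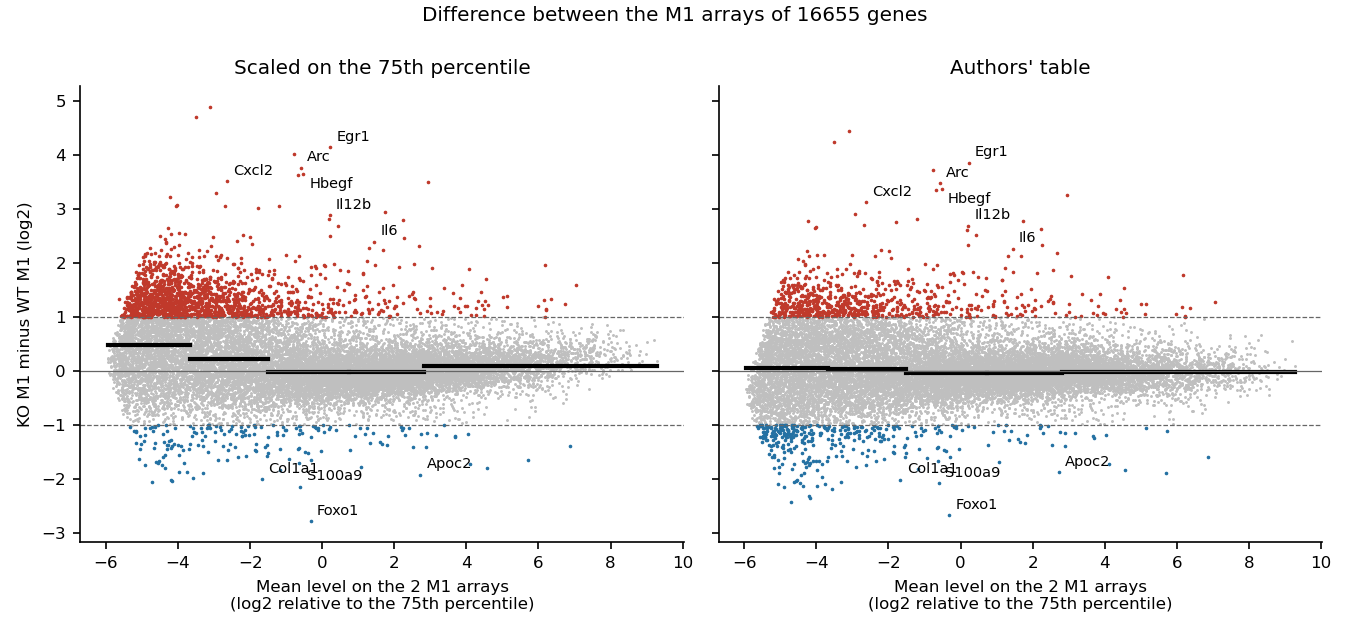
KO M1 minus WT M1 (log2, vertical) against the mean level on the M1 arrays (horizontal, log2 relative to the 75th percentile) for 16655 genes, scaled on the 75th percentile (left) and in the authors' table (right). Points past 2-fold (dashed lines) are red or blue, and black bars give the median of each of 5 level bins, which goes from 0.47 at the dim end to 0.09 at the bright end on the left. Egr1, Hbegf and Arc stand at the top of genes of middle level and Foxo1 at the bottom in both panels.

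The genes with the largest differences on both scales, the liver list left apart, were led by 1700016G22Rik, which read -5.86 on WT M1 and -1.15 on KO M1 and was not above background elsewhere. Next came Egr1 (4.15), Arc (3.77) and Hbegf (3.66), described with the immediate early genes, then the muscle myosin light chain gene Myl3 (3.64) and the chemokine gene Cxcl2 (3.53). Slc23a3 (3.31), Rhox5 (3.22), Trim69 (3.06), Chst10 (3.05), Col4a2 (3.03) and Slc25a29 (2.95) completed the 12 highest. The homeobox gene Rhox5 differed in all 3 states, by 4.09 in M0 and 3.97 in M2, and Slc23a3 by 2.84 and 3.50. Trim69 differed by 0.91 and 1.38. Chst10 (1.19), Col4a2 (2.38) and Slc25a29 (2.45) were also higher in M0. In M2, where both arrays share a slide, they were lower (-1.33, -1.18 and -1.63). Slc25a29 read 0.34 and 0.26 on the first slide (WT M0 and WT M1) and from 2.60 to 4.24 on the second. Col4a2 read -2.94 and -3.29 on the first slide and from -0.81 to 0.36 on the second. For Col4a2 and Slc25a29 another probe of the gene differed by 0.32 and -0.21. The 12 lowest were Foxo1, the calprotectin gene S100a9 (-2.15), Cwh43 (-2.07), the transporter gene Slc16a9 (-2.05), Abhd15 (-2.02), Col1a1 (-2.00), the leukotriene B4 receptor gene Ltb4r1 (-1.99), Apoc2 (-1.92), 2810055G20Rik (-1.89), Col3a1 (-1.88), the B cell receptor component gene Cd79b (-1.87) and Parvg (-1.84). A further probe differed by -0.06 for Abhd15 and by 0.63 for Col1a1. Several of these genes were dim, and with normexp background correction Cwh43 differed by -0.63, Slc16a9 by -0.77, Abhd15 by -0.83, Col3a1 by -0.70 and Cd79b by -0.74. The correction was run with an offset that adds 50 units to every signal. Here and below, normexp differences of genes with few units therefore shrink toward 0 by construction. The part of the offset and that of the background correction were not separated. Dim genes among the 12 highest moved as well. Their normexp differences ran from 1.01 for Rhox5 to 3.75 for Egr1, with 1.62 for Slc23a3, 1.67 for Chst10, 1.87 for 1700016G22Rik and 1.94 for Cxcl2.

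Immediate early genes, which cells switch on within minutes of a stimulus without new protein synthesis, held more genes 2-fold higher than any other list. Of 25 measured members 11 were higher and 0 lower, against 9.14% and 1.07% of all measured genes. Above 0 were 24 of them, against 9931 of all 16655 measured genes. The median difference was 0.73, with 0.57 in the authors' table and 0.41 after median centring. Egr1, a zinc finger factor induced by MAP kinase signalling, read -1.85 on WT M1 and 2.30 on KO M1, which is 17.8-fold. Before scaling these were 151 and 2678 units. On the other arrays it lay between 0.27 and 0.62, so WT M1 was the lowest of the 6 arrays and KO M1 the highest. Hbegf, which encodes an EGF receptor ligand, had the same order: -2.36 on WT M1, 1.30 on KO M1 and -1.73 to -0.31 elsewhere. The activity-regulated gene Arc read -2.47 on WT M1 and 1.30 on KO M1, with the other arrays between -3.31 and -2.51, so here KO M1 alone stood apart.

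The AP-1 component gene Fosb read -3.88 on WT M1, the lowest of the arrays, and -1.77 on KO M1, the highest, a difference of 2.11. Its relative Fosl1 differed by 1.61, but Fos by 0.74, Jun by 0.38 and Junb by 0.45. Nr4a1, an orphan nuclear receptor gene, read -1.27 on WT M1 and 0.66 on KO M1, while the unstimulated cells read 1.73 (WT) and 1.67 (KO). Nr4a1 and Egr2 (-2.25 on WT M1, -0.52 on KO M1, 3.26 and 3.45 in M0) thus read less in M1 than in M0 in both genotypes, by a wider margin in WT. Also higher were Phlda1 (2.25), the AP-1 partner gene Maff (1.62), the antiproliferative gene Btg2 (1.47, with 1.85 and 1.69 for its other probes) and Ier3 (1.01, 0.95 in the authors' table). In the M0 pair 0 of these 25 genes were higher, and in the M2 pair 2, Fosl1 (1.07) and Maff (1.14), with 1 lower, Myc (-1.12). Dusp genes, whose phosphatases switch MAP kinases off, had 1 of 7 measured members higher, against 9.14% of all measured genes. It was Dusp10 (1.02 in M1, 0.81 in the authors' table). All 7 were above 0, with a median of 0.66. Dusp1 read 4.29 on WT M1 and 4.95 on KO M1.

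**Figure D3:**
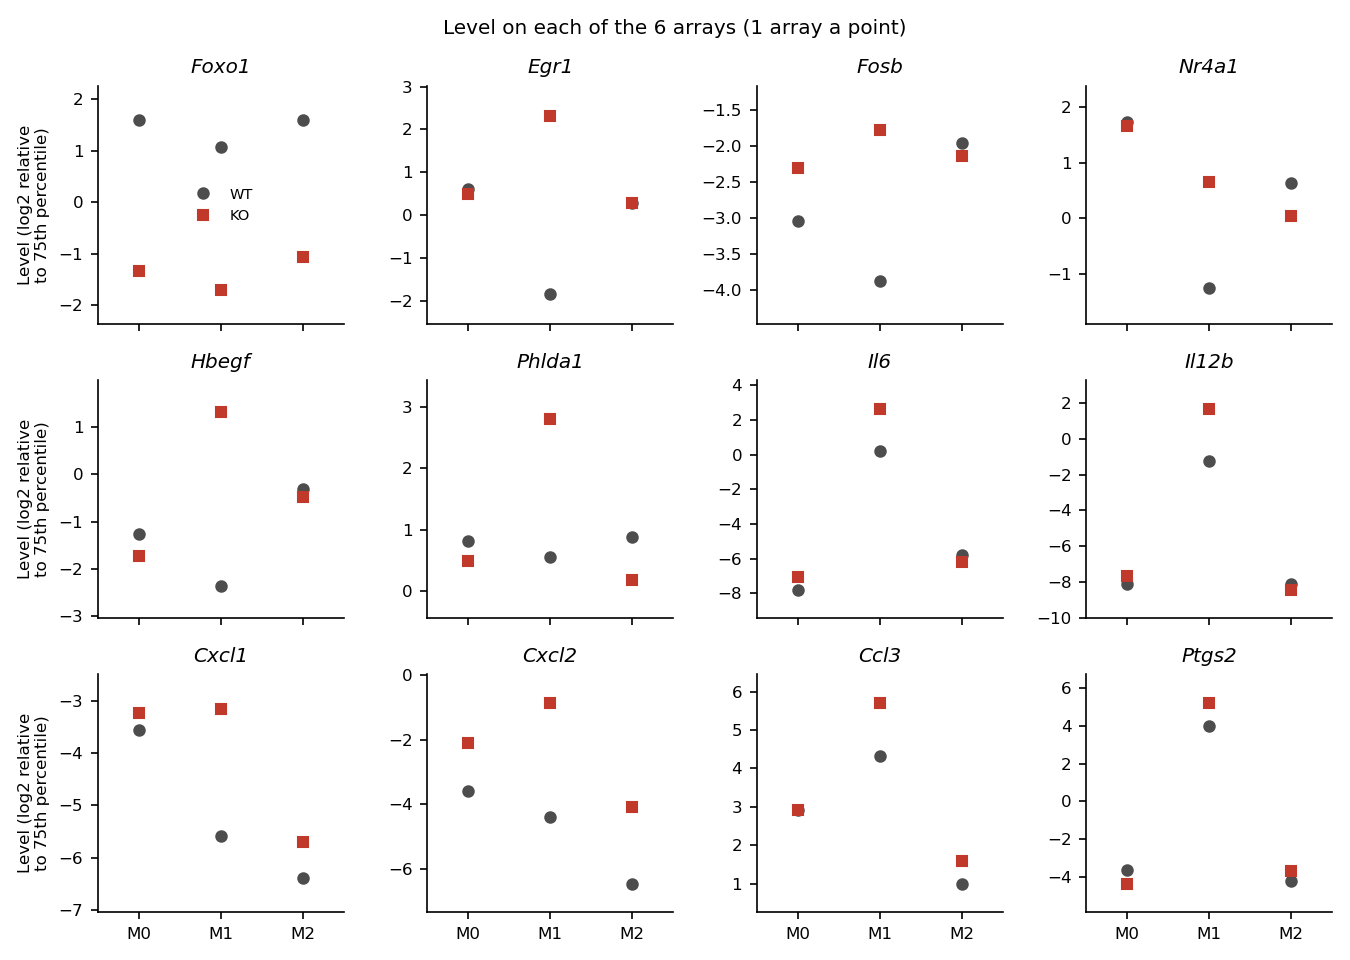
Level of 12 genes on each array (vertical, log2 relative to the 75th percentile), with WT as grey circles and KO as red squares in the states M0, M1 and M2, 1 array a point. Foxo1 is lower on every KO array. For Egr1, Fosb, Nr4a1 and Hbegf the genotypes stand apart mainly in M1, where WT is the lowest of the 6 arrays, and for Il6, Il12b, Ccl3 and Ptgs2 both M1 arrays lie above the rest with KO higher.

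Cytokine and chemokine genes included some of the larger differences. Il6, which encodes a pyrogenic cytokine, read 0.25 on WT M1 and 2.65 on KO M1 (5.28-fold) and -5.81 or less elsewhere. Before scaling its M1 values were 647 and 3395 units. Il12b, the p40 chain shared by IL-12 and IL-23, read -1.23 on WT M1 and 1.66 on KO M1 (7.41-fold) and was not above background on any other array. These were the 2 of 18 measured cytokine genes that were higher, a share near the 9.14% of all measured genes, with 0 lower and a median of 0.39 (0.35 in the authors' table, 0.07 after median centring). Tnf differed by 0.64, Il1b by 0.60 and the IL-1 antagonist gene Il1rn by 0.62, and Il12a by -0.13. Il10, an anti-inflammatory cytokine gene, read 0.63 on WT M1 and 0.12 on KO M1.

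Of the CXC chemokines, 2 of 10 measured genes were higher, against 9.14% of all measured genes. With normexp background correction 1 of them, Cxcl2, was higher. Cxcl2, a neutrophil attractant gene, read -4.39 on WT M1 and -0.87 on KO M1, and was also higher in KO in the M0 pair (1.50) and the M2 pair (2.37). Its neighbour Cxcl1 read -5.59 on WT M1 and -3.14 on KO M1, a difference of 2.45, with 0.33 and 0.70 in the other pairs. The interferon-induced Cxcl9 (0.37), Cxcl10 (0.55) and Cxcl11 (0.49) differed by less than 2-fold from levels of 4.65 to 7.81 on WT M1. The stromal chemokine gene Cxcl12 differed by -0.81 and Cxcl3 by -0.62, and both were 2-fold lower in the authors' table (-1.05 and -1.07). Among the CC chemokines 3 of 10 were higher, against the same 9.14%: Ccl3 (4.33 on WT M1, 5.70 on KO M1), Ccl4 (5.65 and 6.79) and the monocyte attractant gene Ccl12 (6.12 and 7.36, 0.96 in the authors' table). Ccl2, Ccl5 and Ccl7 differed by 0.66, 0.77 and 0.73, and the median of the list was 0.69 (0.46 in the authors' table, 0.38 after median centring). Ptgs2, the inducible cyclooxygenase, read 3.99 on WT M1 and 5.22 on KO M1, and a second probe differed by 1.59.

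Promoter sequences of 4 of these genes are shown as examples that hold the marked letters, and were chosen with the matches known: the neighbouring Cxcl1 and Cxcl2, Il6, and Nr4a1 for the immediate early genes. The same stretch of Il12b held none of the 3 marked motifs. Each is the stretch of 250 bases before the start of transcription, from RefSeq on GRCm38.p6: chr5:90890995-90891244 (Cxcl1), chr5:90903649-90903898 (Cxcl2), chr5:30012864-30013113 (Il6) and chr15:101266596-101266845 (Nr4a1), all on the + strand. Capitals mark matches, on either strand, to the NF-kB consensus, to the cyclic AMP response half-site TGACG, which reads CGTCA when it lies on the opposite strand, and to the AP-1 site TGANTCA.
Cxcl1: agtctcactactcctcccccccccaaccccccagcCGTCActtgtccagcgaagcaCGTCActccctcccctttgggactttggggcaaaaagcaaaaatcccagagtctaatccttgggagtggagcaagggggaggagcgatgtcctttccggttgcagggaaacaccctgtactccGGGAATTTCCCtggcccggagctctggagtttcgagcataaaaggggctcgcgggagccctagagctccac
Cxcl2: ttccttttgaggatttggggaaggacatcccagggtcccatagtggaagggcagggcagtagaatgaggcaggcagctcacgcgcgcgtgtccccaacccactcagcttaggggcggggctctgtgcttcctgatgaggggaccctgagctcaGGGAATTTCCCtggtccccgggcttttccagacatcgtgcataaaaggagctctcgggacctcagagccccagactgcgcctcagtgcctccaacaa
Il6: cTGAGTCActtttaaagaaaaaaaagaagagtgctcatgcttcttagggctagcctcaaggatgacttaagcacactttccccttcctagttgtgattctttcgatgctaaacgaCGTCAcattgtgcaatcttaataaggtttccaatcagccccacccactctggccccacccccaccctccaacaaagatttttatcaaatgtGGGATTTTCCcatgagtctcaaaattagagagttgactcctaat
Nr4a1: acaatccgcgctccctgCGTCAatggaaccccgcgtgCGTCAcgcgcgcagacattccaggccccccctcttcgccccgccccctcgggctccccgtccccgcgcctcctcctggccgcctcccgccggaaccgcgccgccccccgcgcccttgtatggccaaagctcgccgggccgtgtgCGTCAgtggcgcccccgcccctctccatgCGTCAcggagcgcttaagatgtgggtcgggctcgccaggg
The NF-kB match of Cxcl1 and Cxcl2 overlaps itself on the opposite strand and starts at -71 and -97 from the start site, and that of Il6 at -44. Over promoters of 300 bases (250 before to 50 after the start), the NF-kB consensus was in 6.12% of the 11047 measured genes with a promoter entry and in 6.37% of 911 genes 2-fold higher. TGACG was in 33.2% and 21.0%, TGANTCA in 6.92% and 8.89%, and the FoxO letters GTAAACA in 3.21% and 4.39%. Of 18 immediate early genes with an entry, 10 held TGACG, 6 the NF-kB consensus and 0 TGANTCA. These matches describe letters only, and none of these factors was measured on DNA here.

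The sensing machinery for LPS differed little. Of 12 measured receptor and co-receptor genes 0 were higher or lower, and the median was 0.22 (0.07 in the authors' table, -0.10 after median centring). Tlr4 read 1.83 on WT M1 and 1.84 on KO M1. Its partner gene Ly96 differed by 0.24, and Cd14, which hands LPS to the receptor, by 0.69. None of the 21 adaptor and kinase genes was 2-fold apart, from Mapk14 at -0.61 and Ikbkg, the NF-kB essential modulator, at -0.50 to the TRIF gene Ticam1 at 0.55. The 13 measured NF-kB subunit and inhibitor genes also held no 2-fold difference. Nfkbiz, an atypical inhibitor required for part of the Il6 and Il12b response, was the highest at 0.89 (1.72 on WT M1 and 2.61 on KO M1), followed by Tnip3 at 0.79, while Nfkbia differed by 0.12 and Tnfaip3 by 0.19.

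In the interferon-gamma pathway most target genes read above 0 by less than 2-fold, where 9931 of all 16655 measured genes read above 0. None of the 7 receptor and JAK genes and none of the 17 measured STAT and IRF genes was 2-fold apart, with medians of -0.15 and -0.01. Ifngr1 differed by -0.34, Ifngr2 by -0.45 and Irf1 by 0.56, and the AP-1 related factor gene Batf3 by -0.81. Among the 8 SOCS genes, which encode feedback inhibitors, Cish alone was higher (1.07, 0.98 in the authors' table), against 9.14% of all measured genes. Socs1 read 5.29 on WT M1 and 6.00 on KO M1. All 16 measured GTPase genes lay above 0, from Ifi47 at 0.17 to Gbp1 (now Gbp2b) at 1.09, with a median of 0.55, 0.31 in the authors' table and 0.23 after median centring. Of these Gbp1 and Gbp6 (3.76 on WT M1, 4.79 on KO M1, 0.89 in the authors' table) were 2-fold higher. The share over all measured genes was 9.14%. Of 30 genes stimulated by type I interferon 27 were above 0 and 0 were 2-fold apart, with a median of 0.32 that was 0.11 in the authors' table and 0.01 after median centring. Ifnb1 differed by 0.83 and Mx2 by 0.80, and Ifi44 was the lowest at -0.69. For the 17 genes of MHC class I and the immunoproteasome the median was 0.26, 0.09 in the authors' table and -0.05 after median centring, with Tap2 the highest (1.21 on WT M1, 2.19 on KO M1).

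MHC class II genes, which present antigen to CD4 T cells and which the title of the series names, differed little in M1. Ciita, their master regulator, read -0.68 on WT M1 and -0.81 on KO M1. The chain genes H2-Aa (2.71 and 2.21), H2-Ab1 (5.60 and 5.30) and H2-Eb1 (2.50 and 2.42) and the invariant chain gene Cd74 (6.52 and 6.10) were each lower by less than 2-fold. The 4 probes of H2-Ab1 differed by -0.34 to -0.26. Of the loading genes, H2-DMa differed by -0.10, H2-DMb1 by 0.20 and H2-Oa by -0.17, and H2-DMb2, a dim gene at -4.60 and -5.74, by -1.14 (-0.28 with normexp background correction). Thus 8 of 9 measured genes were below 0 and 1 was 2-fold lower, against 1.07% of all measured genes, with a median of -0.17 (-0.21 in the authors' table, -0.48 after median centring). No array had H2-Ob, H2-Ea or H2-Eb2 above background. The same 9 genes had a median of -1.18 in the M0 pair and -0.92 in the M2 pair, where Ciita differed by -2.39 and -1.34. Ciita and H2-Aa read less in M1 than in M0 in the WT cells (0.95 and 3.72 in M0). None of the 7 genes of factors that bind class II promoters was 2-fold apart, from Rfxank at -0.37 to Nfyb at 0.28.

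**Figure D4:**
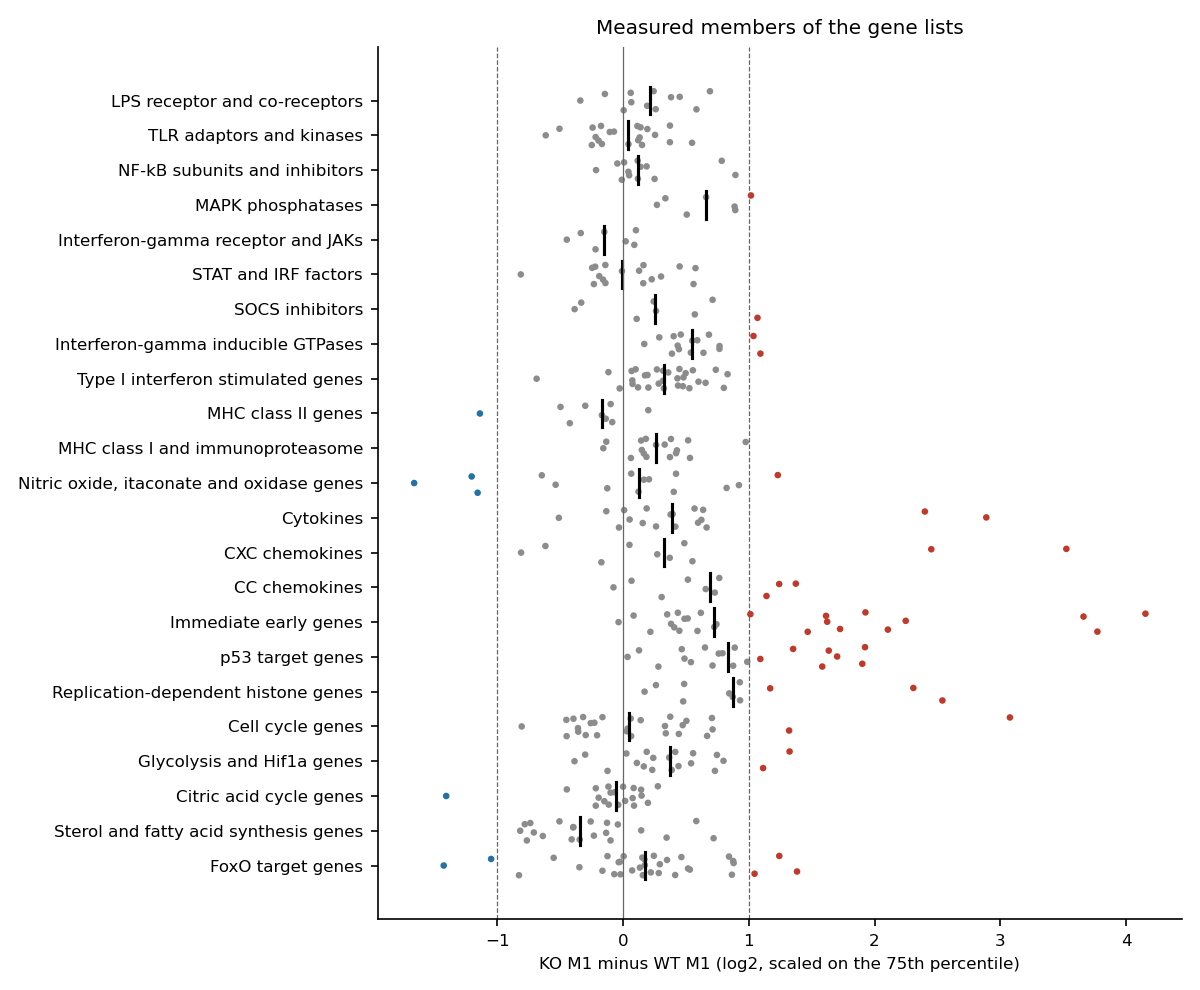
KO M1 minus WT M1 (horizontal, log2 scaled on the 75th percentile) for the measured members of 23 gene lists, 1 point a gene, with the median as a black bar and 2-fold as dashed lines. Immediate early (11 of 25) and p53 target genes (7 of 20) hold the most points past 2-fold, while receptors, adaptors, NF-kB and JAK-STAT genes lie within it. Past 2-fold are also 2 of 18 cytokine, 2 of 10 CXC and 3 of 10 CC chemokine genes, all higher, against 9.14% of all measured genes.

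Arginine and nitric oxide genes differed in both directions. Ass1, an enzyme gene of the path from citrulline to arginine, read 4.28 on WT M1 and 3.08 on KO M1. A second probe of Ass1 differed by -1.14, although KO was above WT in M0 (0.63) and M2 (1.21). Arg2, the mitochondrial arginase, read -1.80 and -3.46, and Arg1, the cytosolic one, -0.62 and 0.62. The arginine transporter gene Slc7a2 differed by 0.92, Nos2 by -0.54, the tetrahydrobiopterin enzyme gene Gch1 by 0.17, and Irg1 (now Acod1), which makes itaconate, by 0.40. Lcn2, a siderophore-binding protein gene, read 3.47 and 2.32. With Ptgs2, which the list also holds, 3 of its 15 genes were lower (Ass1, Arg2 and Lcn2) and 1 higher, against 1.07% and 9.14% of all measured genes, with a median of 0.12 (0.01 in the authors' table, -0.19 after median centring). The prostaglandin synthase gene Ptges differed by -0.65, while the prostaglandin E2 receptor gene Ptger2 read 1.50 on WT M1 and 0.03 on KO M1, and differed by 0.06 and -0.09 in the other pairs.

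Genes activated by p53 read higher on the KO array in M1, as in the other states. All 20 measured members lay above 0 in M1, against 9931 of all 16655 measured genes. Of these members 7 were 2-fold higher, against 9.14% of all measured genes. Their median was 0.83 (0.75 in the authors' table, 0.52 after median centring). The medians of these genes were 1.23 in the M0 pair and 1.64 in the M2 pair, with 13 and 16 of 20 higher, against 5.53% and 2.27% of the genes measured in those pairs. Phlda3, an AKT inhibitor gene, read 3.68 on WT M1 and 5.39 on KO M1, and Trp53inp1 2.10 and 4.01. The apoptosis gene Pmaip1 (1.88 and 3.23), the kinase gene Plk2 (1.16 and 3.08), Gtse1 (-2.97 and -1.33), 4632434I11Rik (now Ddias, -1.62 and -0.04) and Gdf15 (3.29 and 4.38, 0.96 in the authors' table) were the others. Cdkn1a, which encodes the cell cycle inhibitor p21, differed by 0.88 and the p53 antagonist gene Mdm2 by 0.65. All 11 measured replication-dependent histone genes lay above 0 as well, with 3 higher, against 9.14% of all measured genes: Hist1h2bq (-5.07 and -2.53), Hist1h4i (1.53 and 3.84) and Hist1h2ba (3.19 and 4.37). Near-identical histone copies may share signal on these probes.

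Cell cycle genes had a median of 0.05 over 28 genes in M1 (-0.05 in the authors' table), against -0.50 in M0 and -1.14 in M2, with 17 of 28 lower in M2, against 3.98% of the genes measured in that pair. In M1 2 genes were higher, a share near the 9.14% of all measured genes. The cyclin gene Ccne2 read -5.56 on WT M1 and -2.48 on KO M1, with -5.15 to -3.54 on the other arrays, and its difference was 0.95 with normexp background correction. The other was the mitotic cyclin gene Ccnb2 (1.32), while Mki67 differed by -0.36 and Tk1 by -0.81.

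Metabolic genes differed less. Of 20 glycolysis and Hif1a genes 17 were above 0 and 2 higher, a share near the 9.14% of all measured genes. These were Pfkp (1.04 on WT M1, 2.37 on KO M1, with 0.64 and 0.62 for other probes) and Egln3, a HIF prolyl hydroxylase gene (-1.26 and -0.15). The median was 0.38, 0.14 in the authors' table and 0.06 after median centring, and Hif1a itself differed by -0.39. Among 20 citric acid cycle genes Idh2, the mitochondrial NADP-linked isocitrate dehydrogenase, was lower (-0.88 and -2.28), against 1.07% of all measured genes. The median was -0.05. None of the 21 measured sterol and fatty acid synthesis genes was 2-fold apart, but 17 lay below 0, with a median of -0.34 (-0.37 in the authors' table, -0.66 after median centring). The isomerase gene Idi1 was the lowest at -0.82. Of 14 LXR and PPAR genes Apoc2, a lipoprotein lipase cofactor gene, was lower (3.69 and 1.76), against the same 1.07%. Abca1 differed by -0.53 and Lpl by 0.72.

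Genes described as FoxO targets did not share a direction. Of 34 measured, 3 were higher, a share near the 9.14% of all measured genes, and 2 lower, against 1.07%, and the median was 0.17 (0.04 in the authors' table, -0.14 after median centring). Higher were the stress gene Gadd45a (-0.17 on WT M1, 1.07 on KO M1), Klf4 (4.44 and 5.83) and Txnip (3.62 and 4.66, 0.90 in the authors' table). Lower were the sphingosine-1-phosphate receptor gene S1pr1 (0.08 and -1.34) and the insulin receptor gene Insr (-1.74 and -2.79), whose other probe differed by -0.15. The cell cycle inhibitor gene Cdkn1b differed by 0.25, Sesn1 by -0.07, Bcl6 by -0.12, and the stress sensor gene Sesn3 by 0.52, although it was below WT in M0 (-0.70) and M2 (-1.13).

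Of 16 measured M2 polarization genes 4 were higher and 1 lower, against 9.14% and 1.07% of all measured genes. Mmp12, the macrophage elastase gene, read -1.22 on WT M1 and 1.59 on KO M1, with 1.27 and 0.67 in the M0 and M2 pairs, and the collagenase gene Mmp13 2.40 and 3.60. Arg1 and the ribonuclease gene Ear11 (1.04, 0.82 in the authors' table) were the other higher members. The lectin gene Mgl2 was the lower one (-3.59 and -5.33), while Mrc1 differed by 0.85 and Chi3l3 (now Chil3) by -0.42. Cd5l, an inhibitor of macrophage apoptosis, read 1.04 and 3.51 and was also higher in M0 (2.15) and M2 (3.05). The costimulatory receptor gene Cd40 read 3.66 and 4.96, with -0.17 and -0.49 in the other pairs, and Tnfsf4 (OX40 ligand), the other higher gene of the costimulatory list, differed by 1.02 (0.78 in the authors' table). Thus 2 of 11 costimulatory genes were higher, as were 2 of 9 osteoclast and cell fusion genes, against 9.14% of all measured genes. Cd86 differed by 0.34 and Cd274 (PD-L1) by 0.11. The higher osteoclast genes were Dcstamp (-2.70 and -0.82) and Ctsk (-0.44 and 0.89). Of the inflammasome list the decoy receptor gene Il1r2 was lower (-3.12 and -4.59), Nlrp3 differed by 0.53 and Casp1 by 0.51. Fcgr2b, the inhibitory Fc receptor gene, differed by -0.86 and the activating Fcgr1 by 0.65, and the complement gene C4b was lower (-1.01) and Itgax higher (1.16, with 0.65 for another probe).

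Markers of other cells read in both directions. Counts of higher and lower genes here stand against 9.14% and 1.07% of all measured genes. In the dimmest of the 5 level bins, 759 of 3331 genes were higher and 52 lower. Neutrophil genes measured on both arrays numbered 10, of which S100a9 (0.47 on WT M1, -1.68 on KO M1), Ltf (-3.71 and -5.04) and Lcn2 were lower and the collagenase gene Mmp8 higher (1.11, just under 2-fold in the authors' table). The defining genes Elane, Cxcr2 and Retnlg were not above background on either M1 array. Of the 10 measured, 5 were above 0, with a median of 0.23 (-0.05 in the authors' table). The summed linear signal of the 15 neutrophil genes, in multiples of the 75th percentile, was 22.5 on WT M1 and 15.1 on KO M1. Most of this fall came from 1 gene, Lcn2, at 6050 and 2701 units before scaling. For 13 monocyte and progenitor genes the sums were 199.7 and 78.2, mostly from the inflammatory monocyte gene Ly6c2 at 7.56 on WT M1 and 6.17 on KO M1. Of the 8 measured, Ly6c2 was lower and Flt3, which the dendritic list also holds, higher (1.53), while Ccr2 read -1.87 and -2.79. The progenitor factor gene Myb, not above background on WT M1, was at least 2.44-fold higher on KO M1. Of 14 measured stromal genes 13 lay below 0 and 3 were lower, Col1a1 (-0.67 and -2.67), Col3a1 (-3.03 and -4.91) and Col5a1 (-2.39 and -3.53, with 0.84 for another probe), and the sums were 65.1 and 55.2. Fewer cells of a type and less RNA per cell cannot be told apart in these bulk samples. Lymphocyte, mast cell, red cell and dendritic genes were mostly dim and mostly above 0. Of 9 measured B cell genes 8 were above 0, with Ighm (1.68), Iglv1 (1.45) and Vpreb3 (1.18, 0.93 in the authors' table) higher and Cd79b lower, and the sums over 12 genes were 71.2 and 87.4, mostly from Blnk at 6.14 and 6.43. Of 7 measured T and NK cell genes Cd3e (1.73), Cd4 (1.63) and Lck (1.56) were higher, and the sums over 15 genes were 0.692 and 1.61. Another probe of Cd3e was not above background on any array. Another probe of Cd4, not above background on both M1 arrays, differed by -2.31 (8.87 and 1.78 units). The median of the T and NK cell list was 0.27, and -0.20 in the authors' table. Of 6 measured mast cell genes Tpsb2 (1.15), Fcer1a (1.10) and Cma1 (1.08) were higher, none of them in the authors' table, with sums over 10 genes of 1.80 and 2.32. The dendritic list had 2 of 9 higher (Flt3 and Itgax) and sums of 4.91 and 8.21, and the red cell list 1 of 6 (Hbb-b1 at 1.04, 0.75 in the authors' table) and sums of 2.18 and 3.32. The part of any of these cells in the differences above was not tested.

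The genotypes were also set side by side in the other states, and the 3 pairs share no array. In the M0 and M1 pairs the WT array lay on the first slide and the KO array on the second. Both M2 arrays lay on the second slide. Overlap between the M0 and M1 pairs therefore cannot be told apart from a shared slide difference. Over the 15877 genes above background on all 6 arrays, 1335 were higher in the M1 pair and 883 in the M0 pair, and 554 were in both, which is 41.5% of the first and 62.7% of the second. The M2 pair had 352 higher genes, of which 70 were shared (5.24% and 19.9%). Of 165 genes lower in M1, 50 were lower in M0 (30.3% of M1 and 10.9% of M0) and 47 in M2 (28.5% and 8.90% of M2), and 36 genes were higher and 32 lower in all 3 pairs. Whether the difference itself varies between states was not tested, as each value is 1 array against 1. Over all measured genes of each pair the shares were 5.53% higher and 3.73% lower in M0, together 9.26%, and 2.27% and 3.98% in M2, together 6.25%.

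**Figure D5:**
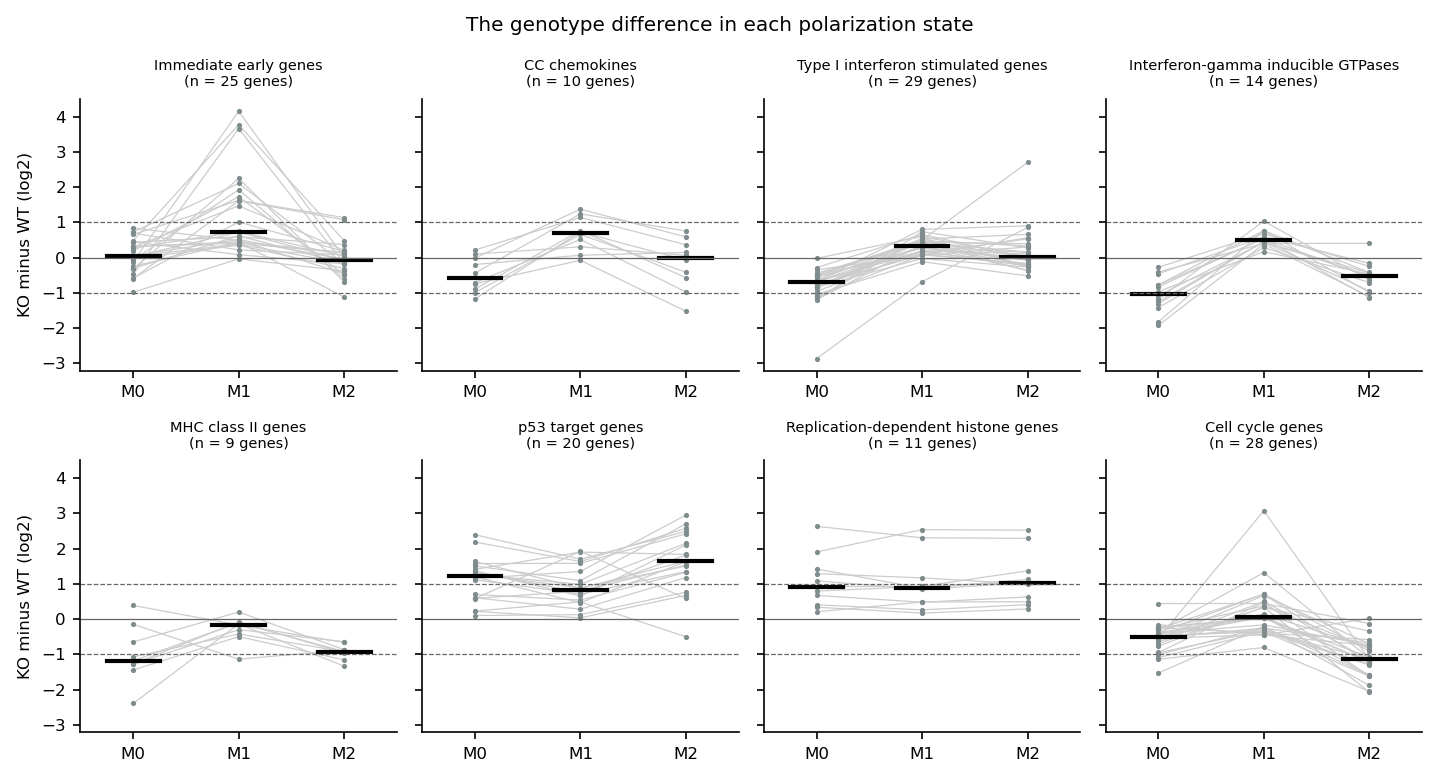
KO minus WT (vertical, log2 scaled on the 75th percentile) in the M0, M1 and M2 pairs for members of 8 gene lists above background on all 6 arrays, with a line for each gene and the median as a black bar. Immediate early genes, chemokines and interferon genes lie highest in M1, MHC class II and cell cycle genes are nearest to 0 in M1, and p53 and histone genes lie above 0 in each pair by their medians.

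With the liver list left apart, genes whose M1 difference lay farthest from both other pairs were, on the higher side, Egr1, Hbegf, Ccne2, Arc, the endothelin gene Edn1 (-2.67 on WT M1, -0.83 on KO M1, with -1.43 and -1.67 in the M0 and M2 pairs), G6pc (2.66), Fbp1 (1.83) and Masp2 (1.49). G6pc, Fbp1 and Masp2, genes typical of liver, differed by 0.72, 0.19 and 0.31 with normexp background correction. On the lower side they were Cela1 (-1.41), Ass1 (-1.20), Slc16a9 (-2.05), S1pr1 (-1.43), Arg2 (-1.66), the ribosomal protein gene Rpl30 (-1.80), Ptger2 (-1.47) and Pdcd2 (-1.21). Another probe of Rpl30 differed by -0.14. The liver list gene Serpina1d lay farther out than any of these, with 4.90 in M1 against -8.89 in M0 and -0.36 in M2.

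Genes above background on 1 of the M1 arrays have only a bound. Of the 27361 gene names, 1433 were such genes on KO M1, of which 580 were at least 2-fold higher. On WT M1 there were 348, of which 46 were at least 2-fold higher there. The bound sets the bright array's value against the higher of the dim array's lowest detected level and the gene's own value. The histone gene Hist1h2ac read -1.32 on KO M1 and was at least 31.6-fold higher than on WT M1, with 1.67 and 2.35 in the M0 and M2 pairs. Hist1h3a was at least 3.40-fold higher, and the costimulatory gene Tnfsf18 (GITR ligand) at least 3.14-fold. Liver list genes were among the larger bounds on KO M1: Ahsg at least 18.9-fold, Alb 16.4-fold, Ambp 9.56-fold and Rbp4 8.03-fold. The liver list had 9 of 34 genes above background on WT M1 and 27 on KO M1. Its part in the 580 genes was not tested. Among genes in no list, Zfp423 was at least 10.3-fold higher on KO M1. The largest bound brighter on WT M1, 67853-fold, was that of Sparcl1, but a second probe of the gene, above background on both arrays, differed by 0.81 the other way (10.6 against 18.4 units). Also brighter on WT M1 were the neutrophil granule gene Ngp (at least 2.13-fold), the fractalkine receptor gene Cx3cr1 (at least 2.17-fold), the granzyme gene Gzmb (at least 2.31-fold), the LPS-binding protein gene Lbp (at least 2.90-fold) and the potassium channel gene Kcnj10 (at least 4.88-fold).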

How the data were processed

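RNA of 6 macrophage samples was hybridised to 6 single-colour Agilent mouse arrays (design 014868), and 2 of them are compared here. Per the file headers, the scanner images were read by Agilent Feature Extraction 10.7.3.1, and the files also give probe positions on mm9. The deposited intensity is the processed signal, which is background-subtracted per the file headers. The authors' deposited table holds log2 values: each column correlated with its own array at 0.99886 or more and had a median of 5.39 to 5.41, while its centring is unstated.

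Here the log2 of each signal minus the 75th percentile over the probes of the array was taken, without control spots and outlier spots (79 to 164 of 43379), which left out 37 of 41174 probes. The brightest probe stood for a gene name. Names were updated through RefSeq (GRCm38.p6) by accession for 27761 probes, by symbol for 5531 and by synonym for 460, and 7422 kept the name in the files. Promoters are from the same RefSeq release and were matched for 11047 measured genes. Python 3.11.15, pandas 2.3.3 and numpy 2.4.6 were used, with limma 3.58.1 in R 4.3.3 for normexp (offset 50). The calculation was tested on simulated data. With 1 array per genotype and state there is no test, and the number of arrays limits the precision. Alternatives were other scalings, background correction, probe choice, filters, outlier flags, a 4-fold threshold and removal of the liver list.

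Named genes were Foxo1 and its family, Lyz2, the MHC class II genes, the 12 highest and 12 lowest on both scales with liver genes apart, list members 2-fold apart or defining for their list, and the 8 highest and 8 lowest by distance from the M0 and M2 pairs. Members and the 44 gene lists were chosen with earlier results of these data known.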

Additional observations from a re-analysis of the deposited data

Results flagged for a closer look

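In 3 lists the median difference between genotypes was at least 0.5 from 0 with opposite signs in M1 and another state, over 5 or more members above background on all 6 arrays. Other lists had opposite signs with a median nearer to 0 in at least 1 of the states. For 10 CC chemokine genes it was 0.694 in M1 and -0.573 in M0. For 9 neutrophil genes it was 0.511 in M1, -1.06 in M0 and -0.818 in M2. The M1 value depended on the genes and the scaling. Over the 10 neutrophil genes measured on both M1 arrays it was 0.23, with -0.05 in the authors' table and -0.08 after median centring. For 9 liver genes it was 1.22 in M1 and -3.84 in M0, where the WT array held the liver transcripts. None of these differences between states was tested, since each value sets 1 array against 1.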

How the results depend on the processing

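No paired analysis was possible because the labels carry no replicate numbers and each genotype and state has 1 array, so no replicate could be left out either. The counts of 1522 higher and 178 lower genes became 743 and 351 in the authors' table, 695 and 550 with median centring, 745 and 356 with quantile normalization, 253 and 53 with normexp, 3884 and 555 with no filter, and 86 and 6 at 4-fold. The higher share of 89.5% became 67.9%, 55.8%, 67.7%, 82.7%, 87.5% and 93.5% in that order. The other 6 alternatives left both counts within 1.5 times. Among the FoxO, Lyz2, MHC class II, highest, lowest and M1-apart genes, 37 were 2-fold apart, of which 0 changed sign and 15 were under 2-fold with at least 1 alternative that gave them a value, and 0 in the authors' table, where the highest and lowest were chosen. List members were not part of this count. Signal over background limits the dim genes most, and the offset of 50 units used with normexp shrinks their differences by construction.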
